A study of Lissachatina fulica and Mizuhopecten yessoensis with 12 samples.

Results

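Genes for calcium release from, and uptake into, the intracellular store of heart muscle, and genes for calmodulin, were followed in the atrium and the ventricle of scallop and giant African snail hearts. They were chosen by symbol. Every listed row named exactly RYR2, ATP2A2, TMEM38B, CALM3, Cam or REM1 was taken, which gave 17 of 6081 rows: 7 of 4195 in scallop and 10 of 1886 in snail. The scallop rows were 2 of RYR2, 2 of CALM3, 2 of Cam and 1 of REM1. The snail rows were 5 of REM1, 2 of ATP2A2, 2 of TMEM38B and 1 of CALM3.

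In a contracting muscle cell, calcium leaves the sarcoplasmic reticulum through ryanodine receptors, binds sensor proteins such as calmodulin and troponin C, and is pumped back by the SERCA calcium ATPases. Entry through voltage-gated calcium channels of the cell membrane triggers the release in vertebrate hearts, and small GTPases of the RGK group, to which REM1 belongs, reduce the current of those channels. The mollusc heart is myogenic: thin-walled atria receive haemolymph and pass it to a muscular ventricle.

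The series sequenced bulk poly-A RNA of adult hearts labelled wild type, and names no treatment. Its 4 groups were the atrium and the ventricle of scallop (Mizuhopecten yessoensis) and the atrium and the ventricle of snail (Lissachatina fulica), with 3 libraries each. The labels do not say whether replicates were separate animals or pools, or how cleanly the chambers were separated, so the spread between libraries may be partly technical. In bulk tissue, fewer cells of a type and less RNA per cell cannot be told apart.

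Each species had 1 table, which listed only rows that the authors had selected for a difference between the chambers. No listed row had an unadjusted p above 0.05 or, in either direction, a log2 change smaller than 1.001 in the authors' deposited table. The chamber difference therefore chose these rows, and it is described here, with no test of it taken as evidence. Nearest to those limits stood TMEM38B Afu007688 in snail, with an unadjusted p of 0.0417 in the authors' DESeq2 test, and Cam Miz0234810.1 in scallop, with a ventricle over atrium log2 fold change of 1.14 in the authors' deposited table. Rows outside the limits were not used here, so the lack of an ATP2A2 or TMEM38B row in scallop, or of an RYR2 or Cam row in snail, says nothing about those genes. The symbols were assigned by annotation after genes of other animals, so rows under 1 symbol are not known to be orthologs. Reads of copies with almost the same sequence may have been shared between them or divided.

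Values are normalized counts, that is reads divided by a size factor for each library, with no correction for gene length, so levels are compared between chambers and not between genes. Reads on listed rows ranged from 10120508 to 21526834 in scallop libraries and from 606309 to 1165104 in snail libraries. Log2 fold changes are atrium over ventricle, with their SE, on the log2(normalized count + 1) scale. Scallop ventricle replicate 3 stood apart: over the 3440 scallop rows past the threshold given below it lay, by the median, 37.5% of the way from the other ventricles toward the atria. The other 5 scallop libraries lay between −26.6% and 6.96%, and the 6 snail libraries between −10.3% and 6.31%.

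All 17 rows had a mean of at least 10. The threshold for a call was a limma adjusted p under 0.05 with at least a 2-fold difference. All 7 scallop rows passed it, 4 on the atrial and 3 on the ventricular side, where 87.6% of the 3927 scallop rows tested passed, 42.0% and 45.6% by side. All 10 snail rows passed it, 7 on the atrial and 3 on the ventricular side, where 83.9% of the 1489 snail rows tested passed, 46.9% and 37.0% by side. In each of the 17 rows the 3 atria and the 3 ventricles did not overlap. The same held for 87.4% of all listed scallop rows (42.3% atrial, 45.1% ventricular) and for 85.9% of all listed snail rows (51.6% atrial, 34.4% ventricular). By the DESeq2 adjusted p in the authors' deposited table, 6 of 7 scallop rows and 8 of 10 snail rows were under 0.05, where 68.9% and 67.6% of listed rows were. Since the tables had been selected on this contrast, nothing is read from these counts. Where a single row is said below to pass or not, this describes how it depends on library and setting. It is no evidence of a chamber difference.

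Among the release genes, the ryanodine receptor rows of scallop were higher in the atrium. RYR2 Miz0103960.1, named for the calcium release channel of heart muscle, had 6378, 7832 and 7107 normalized counts in atria 1 to 3, against 702.5, 258.6 and 4633 in ventricles 1 to 3. Ventricle 3 stood 1.38-fold under the lowest atrium, while ventricles 1 and 2 were far below it. The mean was 7106 ± 727 in atria and 1865 ± 2408 in ventricles (SD, n = 3 each), a log2 fold change of 2.90 ± 0.81. Its size depended on ventricles 2 and 3: the log2 fold change was 4.05 without ventricle 3 and 1.97 without ventricle 2. The row no longer passed the threshold without atrium 2 (2.83), and both count models on recovered reads gave 1.93. The authors' deposited table gives it a DESeq2 adjusted p of 0.0743.

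The other ryanodine receptor row, RYR2 Miz0285140.1, had 154.3, 458.5 and 396.9 normalized counts in atria 1 to 3, against 24.34, 27.07 and 90.09 in ventricles 1 to 3. Atrium 1 was the lowest atrium and ventricle 3 again the highest ventricle. The log2 fold change was 2.93 ± 0.66, and 3.52 without ventricle 3. Within single libraries, reads of Miz0103960.1 per read of Miz0285140.1 numbered 41.3, 17.1 and 17.9 in atria and 28.9, 9.56 and 51.4 in ventricles. These ratios overlapped, with a mean log2 ratio of 4.54 ± 0.72 in atria and 4.57 ± 1.25 in ventricles (SD, n = 3 each).

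TMEM38B encodes TRIC-B, a cation channel of the store membrane that in mammals carries a counter-current during calcium release. Both snail rows were low and higher in the atrium. TMEM38B Afu018588 had 28.46, 34.12 and 20.61 normalized counts in atria, against 7.558, 13.66 and 8.062 in ventricles, a log2 fold change of 1.43 ± 0.42. TMEM38B Afu007688 had 20.44, 23.51 and 29.91 in atria, against 15.12, 8.54 and 8.062 in ventricles, a log2 fold change of 1.18 ± 0.41. Only 5 to 14 reads stood behind any ventricular value of either row. The authors' deposited table gives them DESeq2 adjusted p-values of 0.0712 and 0.22. Quantile normalization turned the direction of both rows, to −0.03 and −0.20. Afu018588 did not pass the threshold without atrium 1, and Afu007688 passed in 1 of 6 fits that left out a library, the one without ventricle 1. Within libraries the ratios of the copies overlapped between the chambers. The mean log2 ratio of Afu007688 over Afu018588 was −0.16 ± 0.60 in atria and 0.11 ± 0.80 in ventricles (SD, n = 3 each). With so few ventricular reads, the overlap cannot show that the balance was the same.

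Among the uptake genes, the SERCA rows of snail lay on opposite sides. ATP2A2 Afu011362, named for the SERCA pump of heart muscle, had 8620, 5817 and 5432 normalized counts in atria 1 to 3, against 25689.8, 21786 and 25156 in ventricles 1 to 3. The lowest ventricle stood 2.53-fold above the highest atrium. The mean was 6623 ± 1740.2 in atria and 24210.4 ± 2117 in ventricles (SD, n = 3 each), a log2 fold change of −1.90 ± 0.23. ATP2A2 Afu010007 had 770.0, 599.8 and 939.3 in atria, against 315.3, 339.9 and 287.5 in ventricles. Its ventricles were closely grouped and its lowest atrium stood 1.76-fold above them, with a log2 fold change of 1.27 ± 0.23. Both rows passed the threshold under every setting tried, with values between −2.10 and −1.38 for Afu011362 and between 1.11 and 1.44 for Afu010007.

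The balance of the SERCA copies within a library does not depend on how libraries are scaled. Reads of Afu010007 per read of Afu011362 numbered 0.0893, 0.103 and 0.173 in atria, against 0.0123, 0.0156 and 0.0114 in ventricles. The chambers did not overlap, and the mean log2 ratio was higher by 3.17 in atria.

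**Figure D1:**
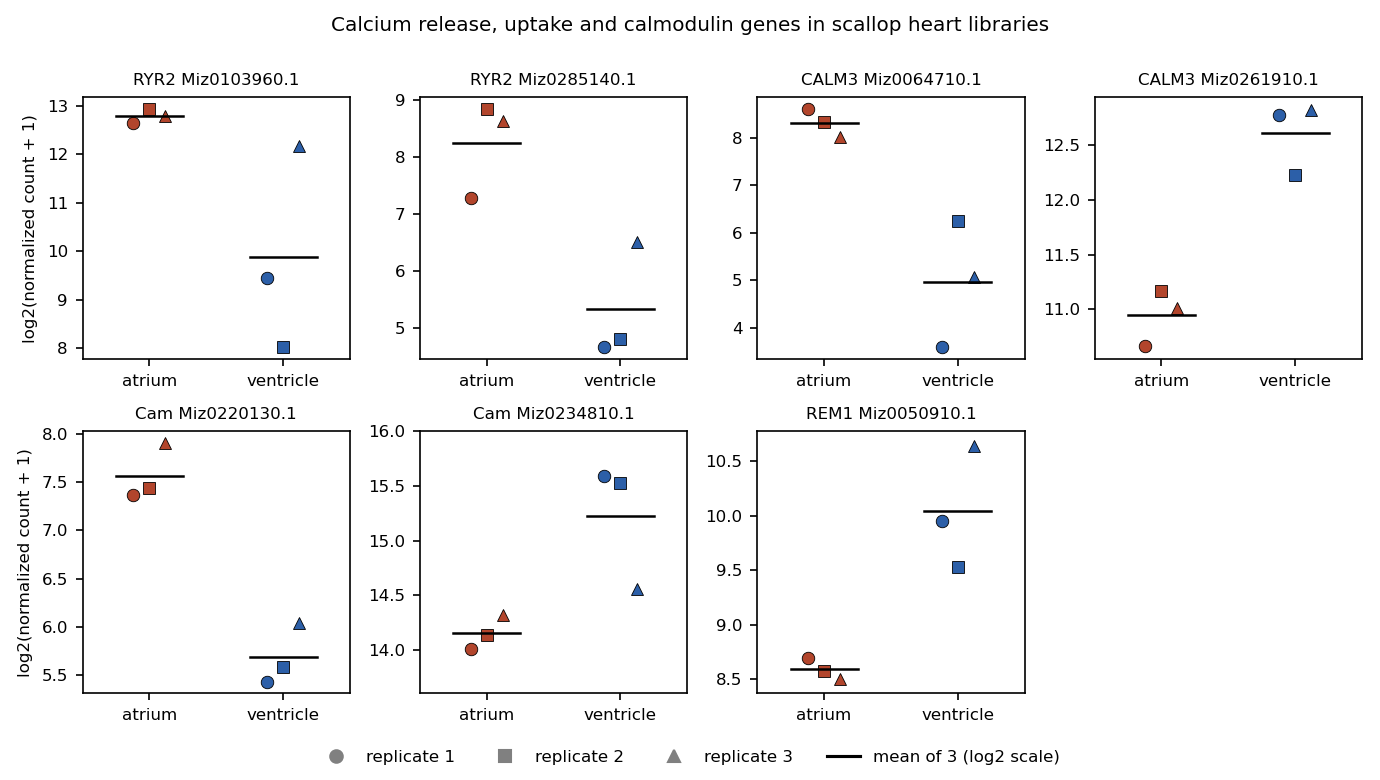
Each panel shows 1 scallop row, with log2(normalized count + 1) on a vertical axis of its own range for 3 atrium and 3 ventricle libraries; symbols mark replicate numbers and bars the mean. Ventricle 3 (triangle) lies nearest the atria in both RYR2 rows and both Cam rows, and farthest from them in REM1 and CALM3 Miz0261910.1.

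Calmodulin, the calcium sensor that regulates ryanodine receptors, calcium channels and many kinases, carried the symbol CALM3 or, after the Drosophila gene, Cam. In scallop each symbol had 1 row on each side. CALM3 Miz0261910.1 had 1623, 2292 and 2062 normalized counts in atria, against 7025, 4809 and 7232 in ventricles, a log2 fold change of −1.66 ± 0.31. The lowest ventricle stood 2.10-fold above the highest atrium, and ventricle 3 was the highest library. CALM3 Miz0064710.1 had 389.8, 320.9 and 257.9 in atria, against 11.06, 75.19 and 32.84 in ventricles, a log2 fold change of 3.34 ± 0.67. Its ventricles were widely spread, and the change was 2.65 without ventricle 1 and 3.98 without ventricle 2.

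Cam Miz0234810.1 had 16479, 18014 and 20445 normalized counts in atria, against 49465, 47345 and 24087 in ventricles. Ventricle 3 stood only 1.18-fold above the highest atrium, and the log2 fold change was −1.07 ± 0.35, with −1.41 without ventricle 3. Without any other 1 of the libraries the row did not pass the threshold, with values from −1.15 to −0.89. Cam Miz0220130.1 had 164.0, 172.9 and 239.3 in atria, against 42.04, 46.62 and 64.75 in ventricles, a log2 fold change of 1.89 ± 0.49. Its chambers were well separated, the lowest atrium lying 2.53-fold above the highest ventricle.

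The copies again shifted against each other within single libraries. Reads of CALM3 Miz0064710.1 per read of Miz0261910.1 numbered 0.240, 0.140 and 0.125 in atria, against 0.00158, 0.0156 and 0.00454 in ventricles. For Cam, reads of Miz0220130.1 per read of Miz0234810.1 numbered 0.00995, 0.00960 and 0.0117 in atria, against 0.00085, 0.000985 and 0.00269 in ventricles. Neither ratio overlapped between the chambers, and the mean log2 ratios were higher in atria by 5.03 for CALM3 and by 2.97 for Cam.

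Snail had 1 calmodulin row, CALM3 Afu003205, with 16.06, 46.25 and 30.58 normalized counts in atria, against 1.08, 8.54 and 2.687 in ventricles. The ventricular values rested on 1, 5 and 2 reads, and the log2 fold change was 2.81 ± 0.72, or 3.41 without ventricle 2. From the summed reads, 129 in atria and 8 in ventricles, the ratio after size factors was 8.68 (95% exact interval 4.27 to 20.5, counting error only). Quantile normalization gave 1.09 and no longer put the row past the threshold.

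**Figure D2:**
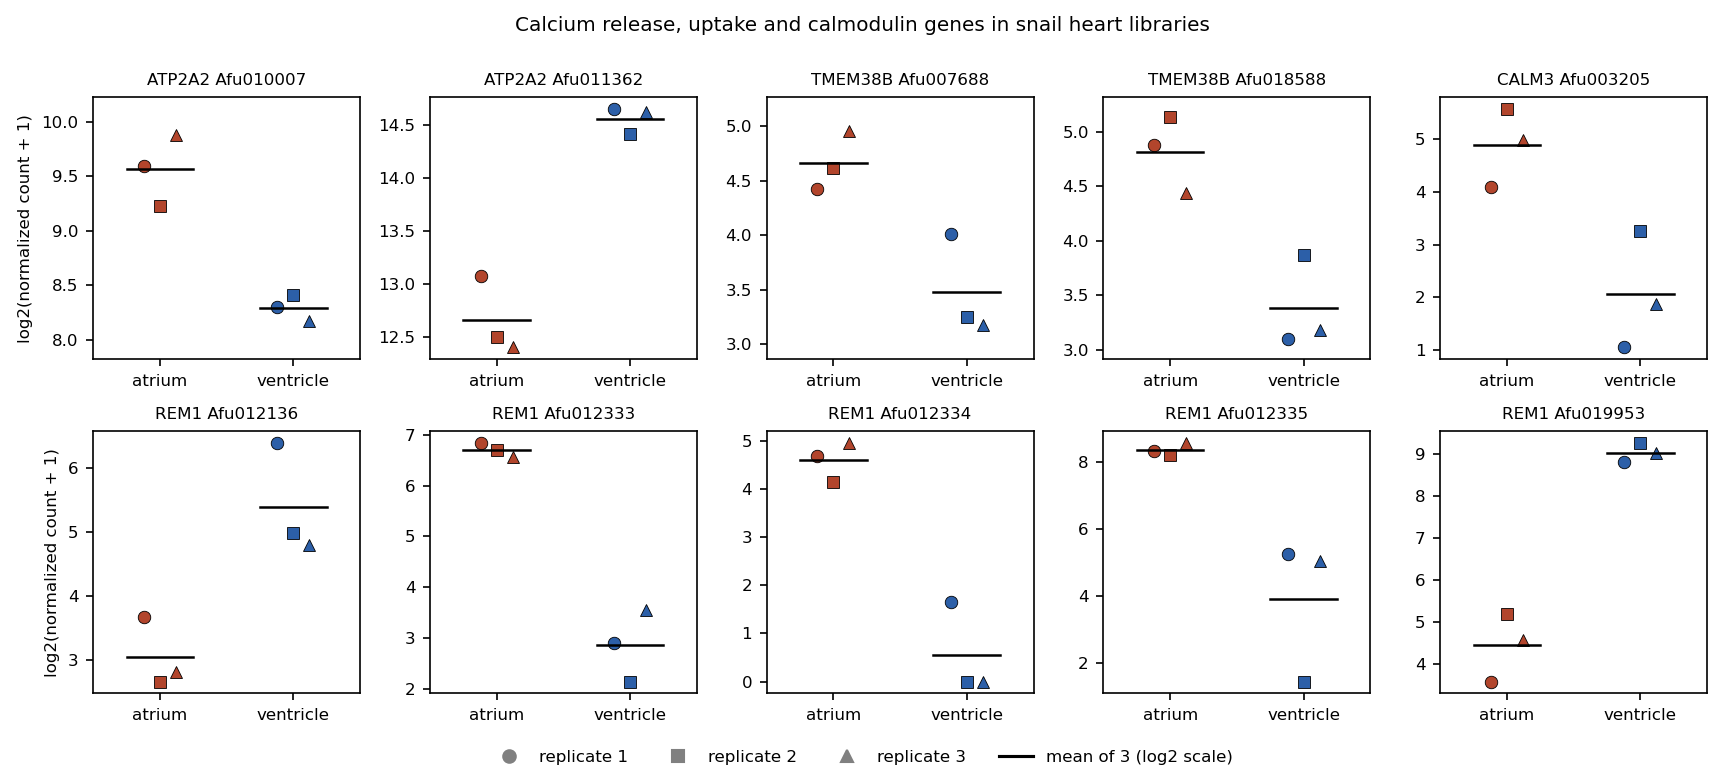
Each panel shows 1 snail row, with log2(normalized count + 1) on a vertical axis of its own range for 3 atrium and 3 ventricle libraries; symbols mark replicate numbers and bars the mean. The ATP2A2 rows lie on opposite sides, and so do the REM1 rows, of which Afu019953 and Afu012136 are the ventricular ones.

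REM1, a GTPase that in mammals lowers the current of voltage-gated calcium channels, had the most copies. Of the 5 snail rows, 2 were ventricular and 3 atrial. REM1 Afu019953 had 10.95, 35.64 and 22.6 normalized counts in atria, against 444.8, 606.3 and 514.6 in ventricles. The lowest ventricle stood 12.5-fold above the highest atrium, and the log2 fold change was −4.57 ± 0.43. REM1 Afu012136 had 11.68, 5.308 and 5.983 in atria, against 83.13, 30.74 and 26.87 in ventricles, a log2 fold change of −2.35 ± 0.56. Ventricle 1 was the highest library of this row.

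The 3 atrial REM1 rows had consecutive row identifiers. REM1 Afu012333 had 113.1, 102.4 and 93.73 normalized counts in atria, against 6.478, 3.416 and 10.75 in ventricles, a log2 fold change of 3.83 ± 0.42. REM1 Afu012335 had 321.9, 295.0 and 377.6 in atria, against 36.71, 1.708 and 32.25 in ventricles, with 4.46 ± 0.97. Its ventricle 2 held a single read, and the change was 3.22 without that library and 5.12 without ventricle 1. REM1 Afu012334 had 24.82, 16.68 and 29.91 in atria, against 2.159 in ventricle 1 and no read in ventricles 2 and 3. From 101 atrial and 2 ventricular reads, the ratio was 27.2 (95% exact interval 7.33 to 227, counting error only).

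Ratios among these 3 rows overlapped between the chambers. Ventricles 1 to 3 held only 6, 2 and 8 reads of Afu012333, 2, 0 and 0 of Afu012334 and 34, 1 and 24 of Afu012335. With so few reads, the overlap cannot show that these copies kept the same balance. The mean log2 ratio of Afu012333 over Afu012335 was −1.68 ± 0.28 in atria and −1.07 ± 1.62 in ventricles (SD, n = 3 each). Against the ventricular row the balance turned over: reads of Afu012335 per read of Afu019953 numbered 29.4, 8.28 and 16.7 in atria, against 0.0825, 0.00282 and 0.0627 in ventricles, with a mean log2 ratio higher by 9.12 in atria. The direction of each snail REM1 row was the same under every scaling tried.

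The single scallop row, REM1 Miz0050910.1, had 412.5, 381.1 and 362.0 normalized counts in atria, against 987.9, 738.4 and 1593 in ventricles. The atria were closely grouped and ventricle 3 was the highest library, farther from the atria than the other ventricles. The log2 fold change was −1.45 ± 0.38, and −1.15 without ventricle 3. Without that library the other scallop rows not yet given so stood at 3.40 for CALM3 Miz0064710.1, −1.56 for CALM3 Miz0261910.1 and 2.07 for Cam Miz0220130.1, and all 7 scallop rows still passed the threshold.

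**Figure D3:**
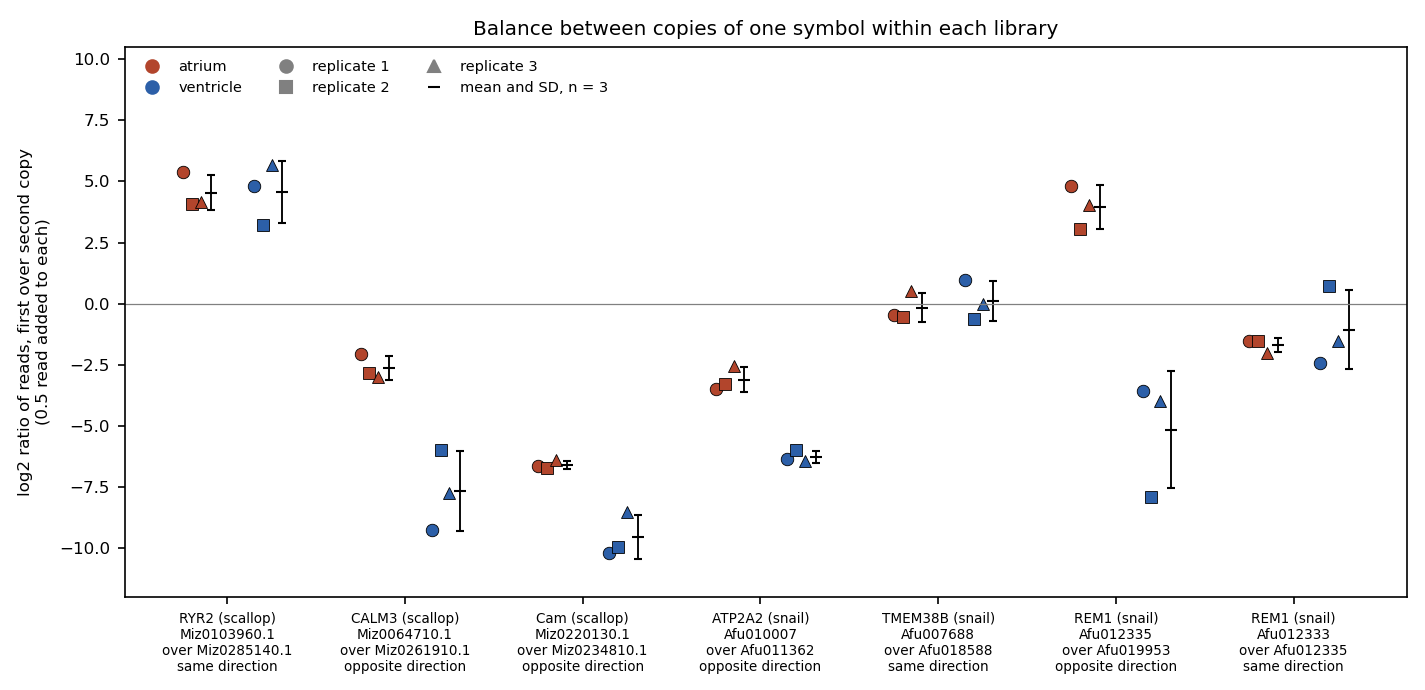
The vertical axis gives the log2 ratio of reads between 2 copies of 1 symbol in the same library, with 0.5 read added to each; points are libraries, and bars the mean and SD of 3. The chambers separate in CALM3, Cam, ATP2A2 and the pair of REM1 copies of opposite direction, and overlap in the RYR2, TMEM38B and REM1 pairs of the same direction.

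In all, 3 member symbols of each species had 2 or more rows, and 2 of the 3 had rows on both sides, CALM3 and Cam in scallop and ATP2A2 and REM1 in snail. Among all symbols with 2 or more rows in a table, 42 of 190 (22.1%) had rows on both sides in scallop and 28 of 129 (21.7%) in snail. The member symbols were few and were chosen with earlier results of these data known. The shares over all symbols take no account of how many rows each symbol has. Nothing is therefore read from the comparison.

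The scaling of the libraries bore on the ventricular rows of scallop and on low atrial rows of snail. The median log2 fold change of all scallop rows tested was −1.01 as deposited. It moved by 0.49 after a further TMM scaling, by 0.65 under quantile normalization and by 1.23 after rescaling to equal medians of cytosolic ribosomal proteins, and the atrial share of all calls was 47.9% as deposited and 74.4%, 46.3% and 96.7% under these scalings in turn. In snail, quantile normalization moved the median of 1.22 to 0.23 and the atrial share of calls to 34.5%, from 55.9% as deposited. Of the 7 atrial snail rows 4 still passed under it; TMEM38B Afu007688 (−0.20) and Afu018588 (−0.03) turned direction, and CALM3 Afu003205 (1.09) did not pass. The 4 atrial scallop rows kept their direction and their call under each scaling. Cam Miz0234810.1 gave −0.58, −0.01 and 0.16 in the same order, so its direction turned under the ribosomal rescaling, and it passed under none of them. CALM3 Miz0261910.1 gave −1.17, −0.98 and −0.44 and passed only after the TMM scaling. REM1 Miz0050910.1 gave −0.96, −1.16 and −0.22 and passed only under quantile normalization. Relative to the median of all scallop rows, the deposited scale put Cam Miz0234810.1 at −0.06, REM1 Miz0050910.1 at −0.44 and CALM3 Miz0261910.1 at −0.65, against 2.90 to 4.36 for the atrial rows. Relative to the snail median, ATP2A2 Afu010007 stood at 0.05, TMEM38B Afu007688 at −0.04 and TMEM38B Afu018588 at 0.21. The other atrial snail rows stood at 1.59 to 3.24 and the ventricular ones at −5.80 to −3.12.

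**Figure D4:**
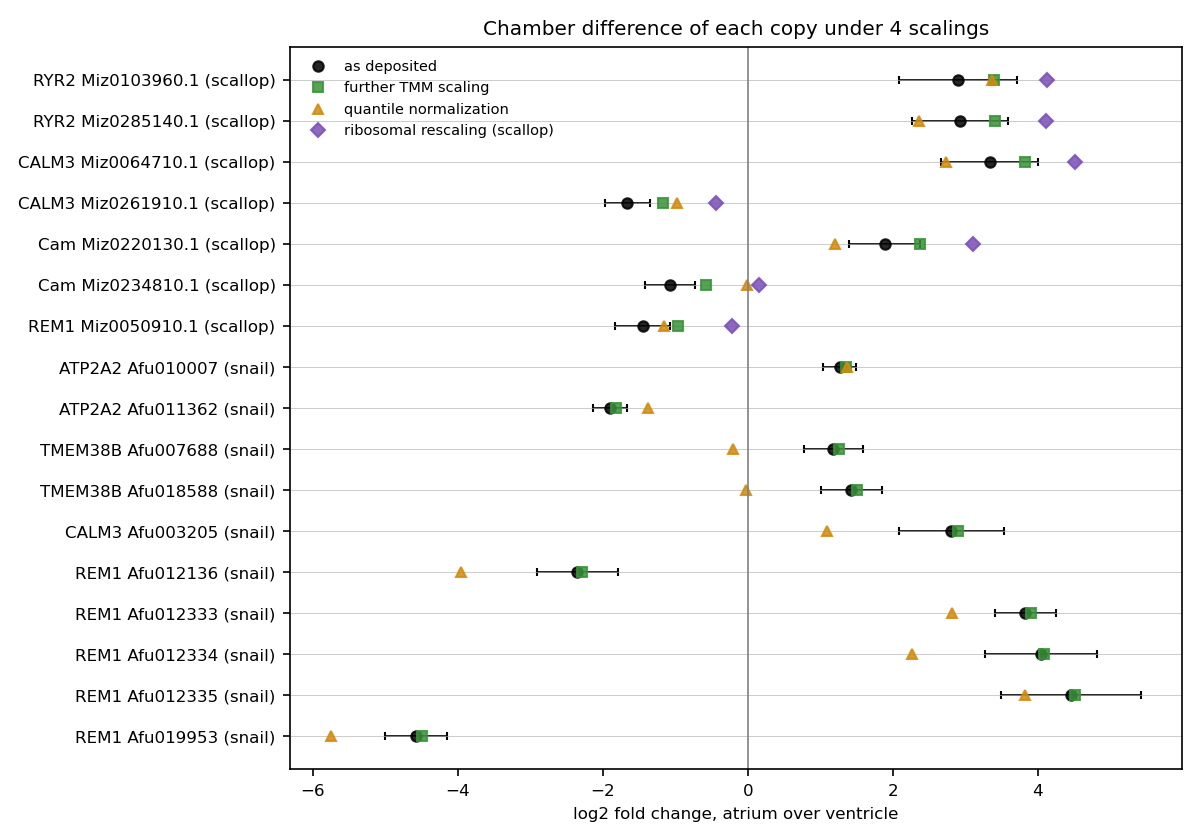
The horizontal axis gives the log2 fold change, atrium over ventricle, of each of the 17 rows on the deposited scale (circles, with SE) and under 3 other scalings, the ribosomal one for scallop rows only. The ventricular scallop rows move toward or past 0 under the ribosomal rescaling, and both TMEM38B rows fall just below 0 under quantile normalization.

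Levels of the listed muscle markers differed along the same contrast, on which their rows had been selected. The muscle marker list matched 20 scallop rows, of which 4 passed toward the atrium and 16 toward the ventricle. Over all scallop rows tested, 42.0% and 45.6% passed by side. The median log2 fold change of the muscle rows was −1.09, beside −1.01 for all scallop rows tested. After the ribosomal rescaling 0 muscle rows passed toward the ventricle and 9 turned direction, and under quantile normalization 2 passed toward the ventricle and 1 turned. The summed normalized counts of the scallop muscle rows were 873202 to 1045827 in atria and 1574816 to 2939921 in ventricles. Of the 10 snail rows, 1 passed toward the atrium and 7 toward the ventricle, with sums of 27208 to 35162 in atria and 96673 to 200554 in ventricles. Over all snail rows tested, 46.9% and 37.0% passed by side. The median log2 fold change was −1.75 for the snail muscle rows, beside 1.22 for all snail rows tested. TNNT2, Tm2 and Mlc1 were listed in both species, and no muscle row was at 0 in all libraries of a chamber. Snail Mlc1 had a row on each side, Afu021142 with a log2 fold change of 3.26 and Afu017761 with −3.32. The scallop rows that passed toward the atrium were MYLK, both sls rows and ACT1. The scallop matches include the actin-related proteins ACTL6A, ACTR10, ACTR3B and ACTR6, which are not specific to muscle. Rows named ACTB, a symbol not specific to muscle either, weigh heavily in the sums of both species. ACTB Miz0185270.1 in scallop averaged 466603 in atria and 972388 in ventricles, and ACTB Afu006397 in snail 12618 and 49614.

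Set against these muscle sums in the same library, a ratio chosen after the values had been seen, 4 of the 6 ventricular rows overlapped between the chambers. The sums were higher in every ventricle than in any atrium, and their rows were selected on the same contrast, so the ratio moves every row toward the atrium by construction. ATP2A2 Afu011362 had 277.8, 165.4 and 199.7 counts per 1000 muscle marker counts in atria, against 257.7, 108.6 and 260.2 in ventricles. Cam Miz0234810.1 had 18.87, 18.73 and 19.55 in atria, against 16.83, 23.58 and 15.29 in ventricles. REM1 Miz0050910.1 and REM1 Afu012136 overlapped as well. REM1 Afu019953 remained higher in ventricles, with 0.3528, 1.014 and 0.8307 in atria against 4.461, 3.023 and 5.323 in ventricles, and CALM3 Miz0261910.1 by a narrow margin, with 1.858, 2.383 and 1.972 in atria against 2.389, 2.395 and 4.592 in ventricles.

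Among markers of other cell types, the summed levels of the scallop neuron list and of the connective tissue list of both species did not overlap between the chambers, while those of the snail neuron list and of the hemocyte list of both species did. All these rows had been selected on the chamber contrast, so sums that do not overlap cannot show cell content. Of all listed rows, 87.4% in scallop and 85.9% in snail did not overlap. By side, 42.0% and 45.6% of all scallop rows tested passed toward the atrium and the ventricle, and 46.9% and 37.0% of snail rows. In scallop, 20 of 23 neuron rows tested and 12 of 16 connective tissue rows passed toward the atrium and 2 of each list toward the ventricle, with sums of 16753 to 18038 in atria against 7259 to 8860 in ventricles, and of 341456 to 397571 against 84115 to 188422. The 7 hemocyte rows divided evenly, 3 and 3, with sums of 30349 to 36460 in atria and 20166 to 44918 in ventricles. In snail, 6 of 11 neuron rows tested passed toward the atrium and 4 toward the ventricle, 7 and 1 of 9 connective tissue rows did so, and 7 and 0 of 9 hemocyte rows. Their sums were 760 to 1112 in atria against 574 to 893 in ventricles, 13264 to 20969 against 5420 to 8872, and 525 to 10585 against 286 to 559. The rows at 0 in all ventricles were GRIN2B Miz0171150.1 and COL6A6 Miz0274890.1 in scallop, and CHRNA9 Afu000291, GRIN2B Afu005200, Mco1 Afu020753 and Mco1 Afu020862 in snail; CHRNA7 Afu009623 was at 0 in all snail atria. In scallop the ribosomal rescaling turned the direction of 1 neuron, 1 connective tissue and 2 hemocyte rows, and quantile normalization that of 1 neuron row; in snail neither further TMM scaling nor quantile normalization turned any. Quantile normalization lowered the atrial calls to 12 of 23 scallop neuron rows, and to 2 of 11 neuron and 2 of 9 hemocyte rows in snail. The part of these cell types in the calcium rows was not tested.

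Other genes of calcium handling were taken from a list of symbols. In scallop it matched 17 further rows, of which 8 passed toward the atrium, 5 toward the ventricle and 4 did not pass, 2 of these lying below a mean of 10. Subunits of voltage-gated calcium channels were all on the atrial side: the T-type pore subunit CACNA1G averaged 143.3 ± 47.2 in atria and 46.28 ± 27.9 in ventricles, CACNA2D3 at 75.24 ± 23.3 and 12.9 ± 4.55, and CACNA2D4 at 102.5 ± 45.2 and 30.79 ± 15.7 (SD, n = 3 each). A row named CAC, whose role the table does not give, averaged 288.2 ± 122 in atria and 51.03 ± 31.3 in ventricles.

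Among scallop sensors and effectors, the calpain CAPN6 (3.01 ± 0.53) and the calmodulin-like CALML3 Miz0153910.1 (3.57 ± 1.04) were atrial by their log2 fold changes. So were calbindin CALB1 (1.82 ± 0.70) and the calmodulin-activated kinase MYLK (1.49 ± 0.31). MYLK, which also belongs to the muscle list, averaged 50528 ± 4688 in atria and 18316 ± 4057 in ventricles. The calcineurin subunit PPP3R1 (−1.50 ± 0.41), the neuronal sensor NCS1 (−1.21 ± 0.33) and EFCAB11 (−1.55 ± 0.41) were ventricular, and NCS1 turned to 0.02 under the ribosomal rescaling. Calreticulin CALR, the calcium buffer of the endoplasmic reticulum, was ventricular at −1.33 ± 0.47, as was VDAC2, a channel of the outer mitochondrial membrane, at −1.63 ± 0.31. CANX (−0.88 ± 0.61) and CAPN15 (0.94 ± 0.37) did not pass, and CANX turned to 0.35 under the ribosomal rescaling. Below a mean of 10, CAMK4 had 22.74, 5.731 and 16.35 normalized counts in atria, against 1.106, 0 and 0 in ventricles, and CALML3 Miz0201810.1 had 2.436, 0 and 5.203 against 12.17, 15.04 and 21.58.

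In snail the list matched 10 further rows, of which 1 passed toward the atrium, 6 toward the ventricle and 3 did not pass. Over all snail rows tested, 46.9% passed toward the atrium and 37.0% toward the ventricle, and nothing is read from these counts either. The channel rows lay on the ventricular side: CACNA1G Afu004418 averaged 24.23 ± 7.31 in atria and 107.0 ± 25.5 in ventricles, and CACNA1G Afu004419 at 24.81 ± 7.42 and 108.9 ± 57.3 (SD, n = 3 each). CACNA1G Afu004416 lay below a mean of 10, at 3.649, 0.7583 and 1.329 in atria against 23.75, 17.08 and 1.344 in ventricles. JPH3, of the junctophilins that hold the store membrane close to the cell membrane, averaged 57.46 ± 8.36 in atria and 226.3 ± 76.4 in ventricles. Both VDAC2 rows (−1.61 ± 0.20 and −1.41 ± 0.26) and LETM1, a protein of the inner mitochondrial membrane (−1.04 ± 0.31), were ventricular. The kinase subunit CAMK2G was atrial at 1.13 ± 0.43 and turned to −0.10 under quantile normalization. CALR (0.95 ± 0.40) and CAMKK2 (−1.87 ± 0.77) did not pass.

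By class, with members included, the median log2 fold changes in scallop were 1.01 for the 4 store rows, −1.63 for the 1 uptake row, 1.81 for the 5 entry rows and 1.21 for the 12 sensor rows tested, beside −1.01 for all rows tested. In snail they were 1.06 for 4 store rows, −1.41 for 5 uptake rows, −1.97 for 7 entry rows and 1.13 for 3 sensor rows, beside 1.22 for all rows tested. The uptake class is not limited to uptake into the store. Its scallop row was the mitochondrial VDAC2, with no ATP2A2 row listed. Its snail rows were both ATP2A2 rows and the mitochondrial VDAC2 and LETM1 rows.

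**Figure D5:**
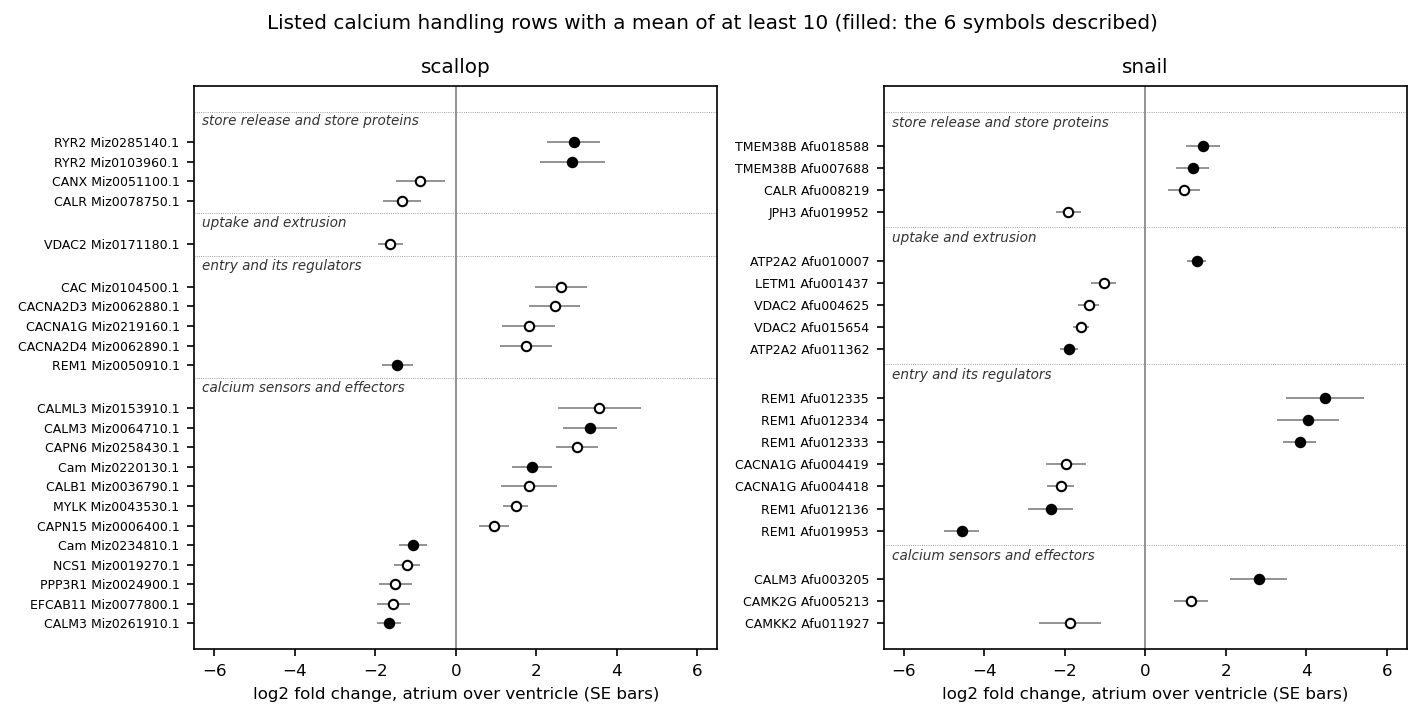
The horizontal axis gives the log2 fold change, atrium over ventricle, with SE bars, of each calcium handling row with a mean of at least 10, grouped by class, for scallop and snail. Filled points are rows of the 6 symbols described, open points the other listed rows; every class with more than 1 row has rows on both sides in both species.

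The rows most like each member were found among the 2410 scallop or 848 snail rows with a symbol and a mean of at least 10, by the root mean square difference over 6 libraries between log2 profiles centred on their means, where smaller is more alike. Closest to RYR2 Miz0103960.1 were Sur at 0.110, RB1 at 0.143 and COLGALT2 at 0.185. For RYR2 Miz0285140.1 they were CCNF at 0.326, IL12RB2 at 0.418 and SLC44A5 at 0.422. ATP2A2 Afu011362 had SOD2 at 0.117, GALT at 0.144 and ImpL2 at 0.155, and ATP2A2 Afu010007 had GLIS1 at 0.110, ELAVL4 at 0.134 and MAN2B1 at 0.163.

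Of the calmodulin rows, CALM3 Miz0261910.1 was nearest to PARK7 at 0.168, PIPOX at 0.176 and Su(P) at 0.180, and CALM3 Miz0064710.1 to SLC2A4 at 0.292, WDR87 at 0.353 and SLC5A6 at 0.464. Cam Miz0234810.1 had the nearest neighbours of all 17 rows, PQBP1 at 0.049, ALYREF at 0.052 and CLNS1A at 0.055. Its log2 fold change of −1.07 lay close to the median of all scallop rows tested, −1.01. Cam Miz0220130.1 had trk at 0.178, FAT4 at 0.190 and DPYS at 0.207, and snail CALM3 Afu003205 had CNTNAP1 at 0.304, ERAP1 at 0.418 and Tspan18 at 0.527. The TMEM38B rows had ACAT2 at 0.087 and FURIN at 0.154 for Afu007688, and ABAT at 0.175, NUDT3 at 0.178 and TMEM97 at 0.186 for Afu018588.

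For REM1, the scallop row was nearest to SI at 0.155, EREG at 0.202 and JMJD7 at 0.225. Snail Afu012136 was nearest to RBM24 at 0.344, JPH3 at 0.394 and PPAP2A at 0.396. REM1 Afu019953, with a log2 fold change of −4.57 and 15 to 47 reads in atria, had only distant neighbours. They were PHPT1 at 0.517, mrp-5 at 0.704 and the myosin light chain Mlc1 at 0.722. Among the atrial copies, Afu012333 had QRFPR at 0.237, HEY1 at 0.269 and PLEKHG7 at 0.351, Afu012334 had Mmp1 at 0.249, CEBPB at 0.368 and PCSK1 at 0.376, and Afu012335 had Pdh at 0.211, GIMD1 at 0.645 and PLEKHG7 at 0.667.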

How the data were processed

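Poly-A selected RNA was sequenced from 12 libraries, 3 each of atrium and ventricle in scallop and snail. Per the file headers, the authors made 1 DESeq2 table per species. The authors scaled read counts by size factors to the deposited normalized counts (a signal) per library. From these counts, per the file headers, the authors computed with DESeq2 a log2 fold change of ventricle over atrium, its SE and test statistic (scores), and a p-value with its adjusted value. The submitters' processing notes name DESeq2 1.20.0, StringTie 1.3.3b, HISAT2 2.0.5 and featureCounts 1.5.0. Genome build, annotation and strand setting are not given in the sources used here. The tables listed only rows the authors had selected on the chamber contrast.

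Dividing each library's values by the worth of 1 read recovered whole reads for 100% of values (tolerance 0.01). The main test was limma 3.58.1 (R 4.3.3), its variance prior trended on level, on log2(normalized count + 1), within each species, over rows with a mean of at least 10. A call needed a Benjamini-Hochberg adjusted p under 0.05 over all rows tested and a change of at least 2-fold. Alternatives were edgeR 4.0.16 and DESeq2 1.42.0 on recovered reads, other pseudocounts, no filter, other scalings, a replicate block and leaving out each library. The fit was also run on simulated data, in which a minority of rows changed, evenly in both directions. The selected tables differ from that setting, so nothing is read from that run. Intervals cover counting error only, and limma p-values reflect spread among these libraries alone. The selected tables hold few rows without a chamber difference, so a trend and scaling estimated on them may differ from those on all genes.

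All members were named, with the rows of the calcium handling list and, for each member, the 3 rows with the smallest difference in profile, of which 1 is not reported here. Members and lists were chosen with earlier results of these data known.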

Additional observations from a re-analysis of the deposited data

Results flagged for a closer look

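For 2 symbols listed in both species, a scallop row and a snail row lay on opposite sides with no overlap between the chambers in either. CALM3 Miz0261910.1 in scallop had a log2 fold change, atrium over ventricle, of −1.66, and CALM3 Afu003205 in snail one of 2.81, so scallop minus snail was −4.48. REM1 Miz0050910.1 in scallop, at −1.45, stood against 3 snail rows: Afu012333 at 3.83 (a difference of −5.28), Afu012335 at 4.46 (−5.91) and Afu012334 at 4.04 (−5.49). The last value rests on 2 ventricular reads, and depends on the pseudocount, being 4.76 with 0.5 and 2.33 with 5. Scaling also bears on these values: under the ribosomal rescaling the scallop rows gave −0.44 for CALM3 Miz0261910.1 and −0.22 for REM1 Miz0050910.1, and under quantile normalization snail CALM3 Afu003205 gave 1.09, none of which passed the threshold. These differences were not tested. The rows share a symbol and are not known to be orthologs, and the species were tabulated separately. Each symbol also had rows that lay on 1 side in both species: CALM3 Miz0064710.1 in scallop was atrial like the snail row, and REM1 Afu012136 and Afu019953 in snail were ventricular like the scallop row.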

How the results depend on the processing

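Of 245 values of member rows under other settings, 221 kept their direction and their side of the threshold, 21 kept their direction but did not pass, and 3 turned direction: Cam Miz0234810.1 under the ribosomal rescaling (0.16) and TMEM38B Afu007688 (−0.20) and Afu018588 (−0.03) under quantile normalization. Counts of calls moved by over 1.5 times as follows. In scallop, TMM scaling left 1 member, 4 calcium list rows and 596 of all rows on the ventricular side, against 3, 8 and 1792 as deposited. Quantile normalization left 1, 3 and 1131 on that side, and 975 of all rows on the atrial side against 1648. The ribosomal rescaling left 0, 0 and 60 on the ventricular side. In snail, quantile normalization left 4 members, 5 list rows and 312 of all rows on the atrial side, against 7, 8 and 698. Leaving out 1 library gave 866 to 1565 atrial and 909 to 1918 ventricular calls in scallop, and 5 to 9 ventricular calcium list rows. The lowest list count came without atrium 1; atria 1 and 2 took both totals down by over 1.5 times, and ventricles 1 and 2 the ventricular one. In snail the atrial calcium list rows numbered 5 to 8, 5 without atrium 1.

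A replicate block changed the calls to 3022 in scallop and 1170 in snail, from 3440 and 1249, and TMEM38B Afu007688 (1.18) did not pass under it. Same-numbered atria and ventricles did not deviate together, with correlations of −0.13, −0.16 and −0.12 in scallop and −0.06, −0.09 and 0.06 in snail. Each deviation was taken from the mean of 3 libraries, in rows selected on the chamber contrast. These correlations therefore cannot show whether the numbers pair the libraries. The cause of the shifts between settings was not tested. No ribosomal rescaling was run in snail, where too few ribosomal protein rows with a mean of at least 10 were listed. Few reads stood behind some snail values: CALM3 Afu003205 and REM1 Afu012334 had 8 and 2 ventricular reads.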

Other observations

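Several rows with neighbouring identifiers and related symbols lay on 1 side, as noticed after their values had been seen. In snail these were REM1 Afu012333, Afu012334 and Afu012335 on the atrial side, CACNA1G Afu004418 and Afu004419 on the ventricular side, and JPH3 Afu019952 beside REM1 Afu019953, also ventricular. In scallop they were CACNA2D3 Miz0062880.1 (2.46) and CACNA2D4 Miz0062890.1 (1.75), both atrial. Genome positions were not used here, so whether these rows adjoin, or whether their reads come from 1 transcript, was not tested.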
